A study of Homo sapiens with 6 samples.

Results

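Cyclin-dependent kinase (CDK) inhibitors are small proteins that bind cyclin-CDK complexes or the kinases alone and hold cells at the G1/S boundary. The members were the 8 genes CDKN1A, CDKN1B, CDKN1C, CDKN2A, CDKN2B, CDKN2C, CDKN2D and CDKN3, found by Ensembl identifier among the 27745 genes of the count table; all 8 were found. The table held RNA-seq counts of MDA-MB-231, a breast cancer line of the triple-negative type. Pools of these cells had been infected with lentivirus that expressed 1 of 3 short hairpin RNAs (shRNAs): the control sh-TRC (the genotype label reads knockdown TRC), sh-MIR100HG-1, or sh-MIR100HG-2. Each group had 2 biological replicates, so 6 libraries were compared. No library was untreated, and every library shared the cell line and an shRNA vector. Both MIR100HG shRNAs target MIR100HG, a long non-coding RNA that hosts miR-100, let-7a-2 and miR-125b-1 in its introns, and the study asked whether lowering it alters cell cycle genes, p27 among them.

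The family falls into 3 kinds of protein. The Cip/Kip members p21 (CDKN1A), p27 (CDKN1B) and p57 (CDKN1C) bind cyclin-CDK complexes, with CDK2 complexes as their main targets, and p21 is the textbook target of p53. The INK4 members p16 (CDKN2A), p15 (CDKN2B), p18 (CDKN2C) and p19 (CDKN2D) bind CDK4 and CDK6 and keep D-type cyclins away from them, and CDKN2A also encodes p14ARF, which stabilises p53. CDKN3 (KAP) is a phosphatase that removes the activating phosphate of CDK2 and is itself a gene of proliferating cells. MDA-MB-231 cells are known to carry a homozygous loss of CDKN2A and CDKN2B and a mutant p53, and p27 is controlled in most cells largely through protein turnover by the SKP2 ubiquitin ligase, which counts of RNA do not measure.

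The guide strands of the shRNAs and the miRNAs of the MIR100HG locus are shown because each could pair with transcripts through its seed. The seed, bases 2 to 8, stands in capitals, with the designed guides as DNA letters and the mature miRNAs as RNA letters from RefSeq (GRCh38.p14).
sh-MIR100HG-1 guide: aTTTAAGTacaaacagaggaa
sh-MIR100HG-2 guide: tTTATTCTgtaggtcactctc
hsa-let-7a-5p: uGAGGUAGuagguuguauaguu
hsa-miR-100-5p: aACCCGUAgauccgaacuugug
hsa-miR-125b-5p: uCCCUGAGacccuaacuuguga
On the minus strand of chromosome 11 (GRCh37), the target of the first guide, ttcctctgtttgtACTTAAAt, lies at chr11:121962132-121962152 and that of the second, gagagtgacctacAGAATAAa, at chr11:121961961-121961981, where capitals mark the bases opposite the seed. Both lie in annotated MIR100HG exons, of 32 and 30 of its 107 annotated transcripts, respectively. The 5 seeds differ from one another.

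Total counts per library ranged from 43804736 to 64588388, and the filter of at least 5 counts in at least 4 of the 6 libraries kept 15372 genes, among them 6 of the 8 members. The markers of the labelled line were as follows: VIM lay between 1607 and 2095 CPM (counts scaled to library size after edgeR's TMM normalisation), EGFR between 403 and 507 and CD44 between 538 and 957, PGR did not pass 0.024, and ERBB2 lay between 71.6 and 116. The epithelial markers CDH1 (1.5 to 7.05 CPM) and EPCAM (4.36 to 13.0) were low, as were the leukocyte marker PTPRC (0.12 to 0.69) and the stromal marker DCN (0.03 to 0.20), while COL1A1 lay between 17.2 and 78.0. MIR100HG had 41.9 and 58.5 CPM in the sh-TRC libraries, 15.2 and 13.2 with sh-MIR100HG-1, and 16.6 and 10.4 with sh-MIR100HG-2, which places all 4 knockdown libraries below both controls, as their labels state. Its log2 fold change (log2FC) was -1.86 (SE 0.25), at an unadjusted p of 5.6e-05 and a Benjamini-Hochberg adjusted p of 0.381 (quasi-likelihood test of edgeR).

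A pair of libraries stood apart from the rest through genes that were silent elsewhere, and CDKN2A and CDKN2B were among these genes. In sh-TRC replicate 2 and sh-MIR100HG-1 replicate 1, 89 genes on 22 chromosomes had at least 10 counts each while the other 4 libraries had at most 2. The same rule applied to the other 14 pairs of libraries found between 0 and 4 genes. The 89 genes summed to 10118 counts in sh-TRC replicate 2 (0.0173% of its total) and 11576 in sh-MIR100HG-1 replicate 1 (0.0179%), with medians of 71 and 80 counts per gene. ESR1, which a triple-negative line lacks, likewise had 2.38 and 2.79 CPM in these libraries and 0.12 to 0.59 elsewhere. Per kilobase of exon the highest gene of the set reached 75.9 counts in sh-TRC replicate 2 and 88.8 in sh-MIR100HG-1 replicate 1, about 33% of the value of CDKN1C there and at most 6.23% of the value of any other tested member. Because these libraries belong to different groups, log2 fold changes of the tested members are also given without them, though not for every comparison. Levels, shares and sums are given by library. The part of this pair of libraries in the results was not tested.

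CDKN2A and CDKN2B were at or near 0 except in that pair of libraries. CDKN2A (ENSG00000147889, chr9:21967752-21995300, minus strand, GRCh37) had 71 raw counts in sh-TRC replicate 2 and 89 in sh-MIR100HG-1 replicate 1, against 0, 0, 2 and 0 in sh-TRC replicate 1, sh-MIR100HG-1 replicate 2, and sh-MIR100HG-2 replicates 1 and 2. CDKN2B (ENSG00000147883, chr9:22002902-22009362, minus strand) had 22 and 18 counts in the same pair and 0 in the other 4 libraries. In both groups that own a library of the pair, the other replicate had 0 counts of either gene, so the spread within groups was as wide as the values themselves. Both genes failed the filter and were not tested, no fold change is given, and a count of 0 allows up to 3 counts in a library. With CDKN2A, p16 and p14ARF cannot be told apart, since a single row counts the exons of both.

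**Figure D1:**
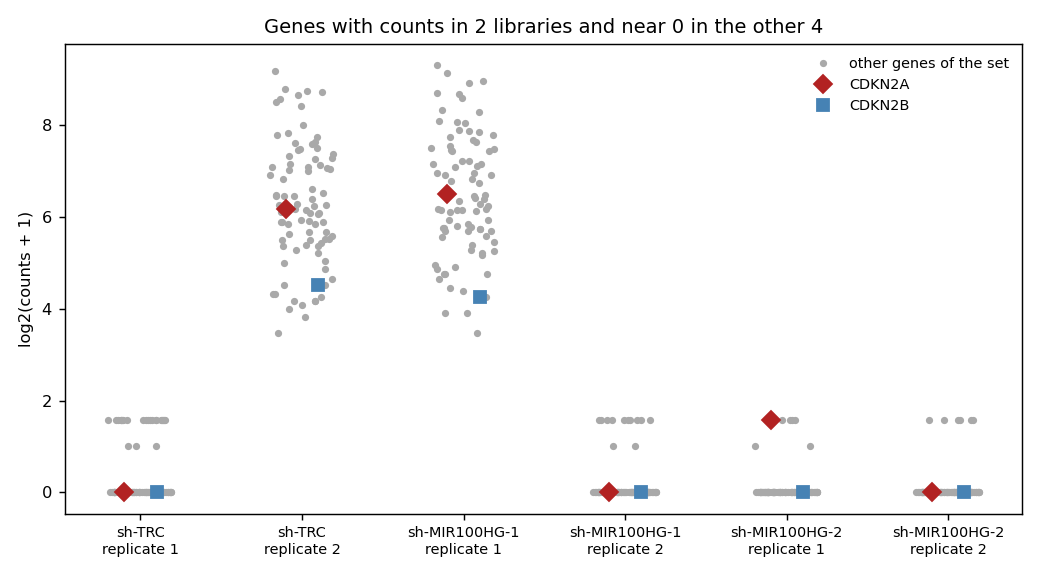
Raw counts of 89 genes, as log2(counts + 1), in each of the 6 libraries, with CDKN2A (red diamonds) and CDKN2B (blue squares) among the other 87 genes (grey points). All 89 genes have at least 10 counts in sh-TRC replicate 2 and in sh-MIR100HG-1 replicate 1 and at most 2 counts in the other 4 libraries, and CDKN2A (71 and 89 counts) sits in the middle of the set.

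The genes next to the pair of INK4 genes were at 0 as well, and those farthest away on the side of the chromosome end had counts. Of the 35 genes listed within 2000 kb on either side of CDKN2A and CDKN2B, 28 had 0 counts in all 6 libraries. Over the whole count table, 21349 of 27745 genes had a count in at least 1 library. Many of the 28 are interferon genes, such as IFNB1 and IFNE. The 28 include MTAP, a methionine salvage enzyme gene that lies next to CDKN2A and is often lost with it, and DMRTA1 on the other side. On the side of the chromosome end, FOCAD had between 129 and 272 counts and MLLT3, a subunit gene of the super elongation complex, between 908 and 1206. KLHL9 and ELAVL2 did not pass 2 counts and 1 count. Unlike CDKN2A and CDKN2B, MTAP and DMRTA1 stayed at 0 in the pair of libraries that stood apart. A further row without a symbol covers both INK4 genes on the opposite strand and was at 0 throughout, and no other row of the table overlaps any of the 8 members. Counts of RNA do not tell a lost locus from a silent one, and CDKN2B-AS1 was not analysed here.

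**Figure D2:**
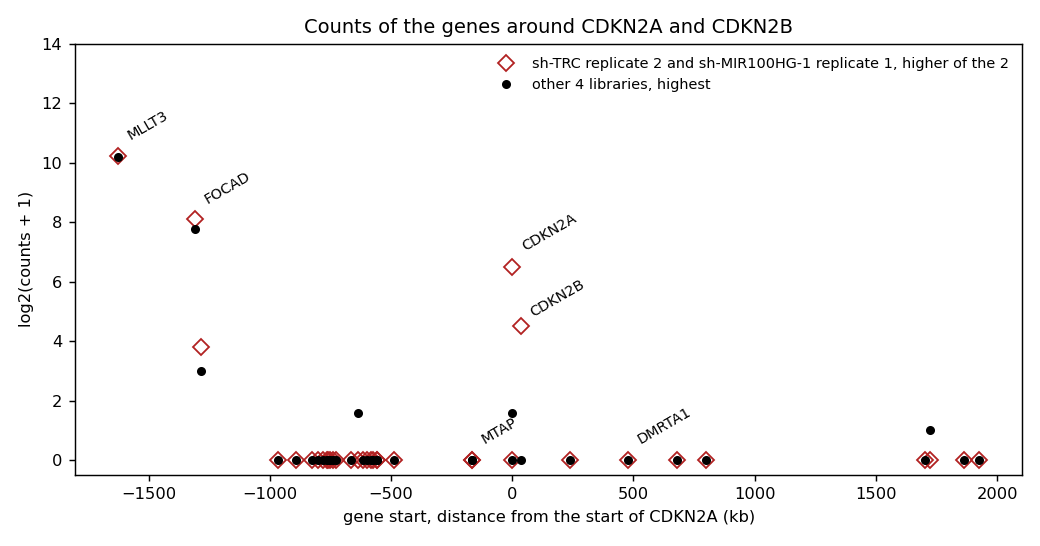
Counts of the 35 genes around CDKN2A and CDKN2B, as log2(counts + 1) against the distance of the gene start from the start of CDKN2A in kb. Red diamonds give the higher of sh-TRC replicate 2 and sh-MIR100HG-1 replicate 1, and black points the highest of the other 4 libraries; MLLT3 and FOCAD have counts in every library, and CDKN2A and CDKN2B have counts above 2 only as red diamonds.

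Among the expressed members, p21 transcripts were the most abundant and p57 transcripts the least. Per kilobase of counted exon, the sh-TRC means were 57.7 ± 8.63 CPM per kb for CDKN1A, 42.0 ± 7.16 for CDKN3, 39.4 ± 9.75 for CDKN2D, 24.1 ± 3.14 for CDKN1B, 21.5 ± 4.86 for CDKN2C and 3.10 ± 1.11 for CDKN1C (SD, n = 2 each). In the control, CDKN3 and CDKN2D overlapped each other, and so did CDKN1B and CDKN2C, while the libraries of other neighbours in this order did not overlap. The order of the middle genes was different with the MIR100HG shRNAs. CDKN1B moved from rank 4 in the control to rank 2 in both knockdown groups (41.6 ± 11.2 CPM per kb under the first shRNA and 46.3 ± 12.0 under the second), and CDKN3 moved from rank 2 to rank 4. With sh-MIR100HG-1, CDKN1B, CDKN2D and CDKN3 had means of 41.6, 40.1 and 40.0 CPM per kb and their libraries overlapped, so that their order there lies within the spread. With sh-MIR100HG-2, CDKN1B (37.8 and 54.8 CPM per kb) and CDKN2D (34.8 and 56.6) overlapped as well, so that rank 2 of CDKN1B lies within the spread in both knockdown groups. CDKN1A kept rank 1 and CDKN1C rank 6 in all 3 groups. With sh-MIR100HG-1, the CDKN1A libraries (41.5 and 61.1 CPM per kb) overlapped those of CDKN1B, CDKN2D and CDKN3, so that rank 1 there lies within the spread. Within each single library CDKN1A was the highest member.

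**Figure D3:**
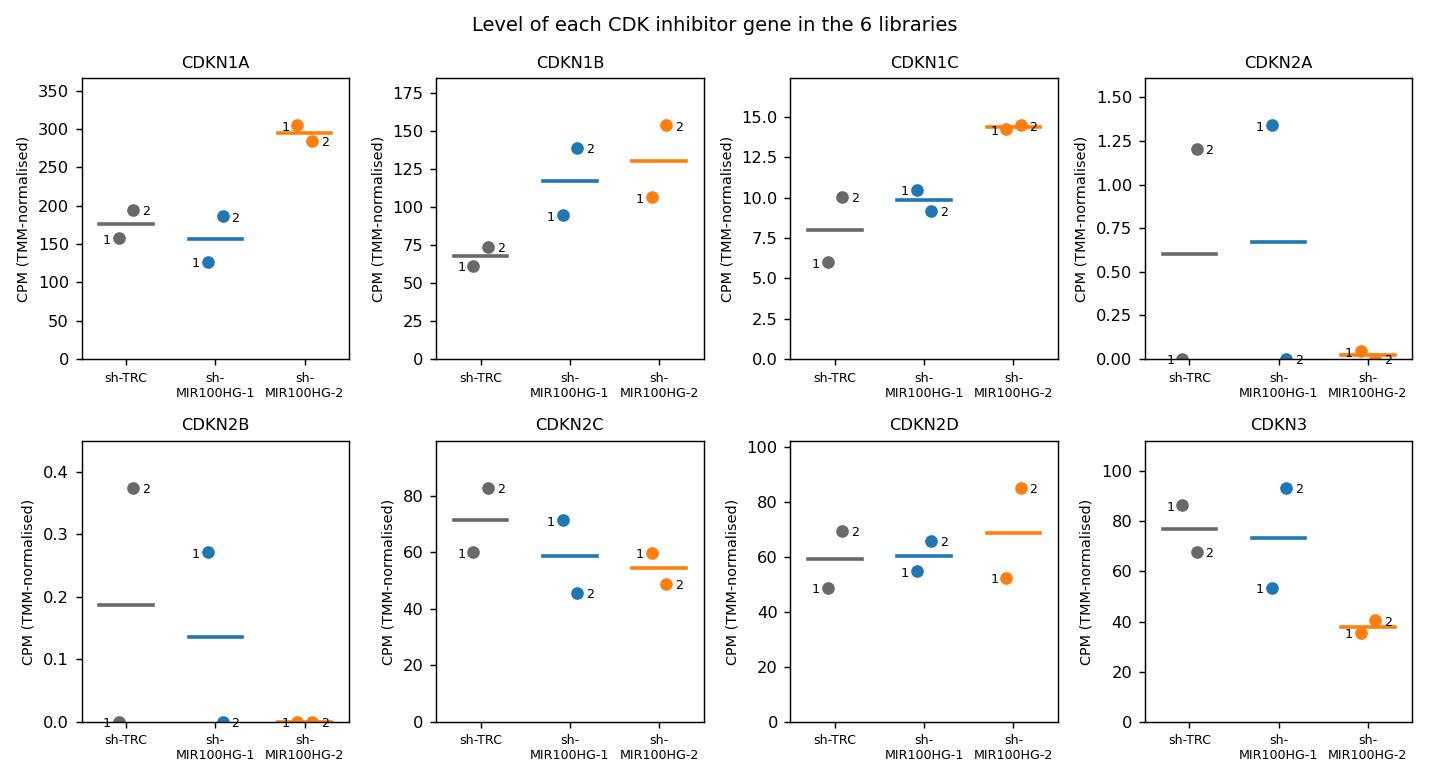
TMM-normalised CPM of the 8 CDK inhibitor genes in the 6 libraries, each panel with its own linear axis from 0; points carry the replicate number and lines give the mean of each group (n = 2). For CDKN1B all 4 knockdown libraries lie above both sh-TRC libraries, for CDKN1A only the sh-MIR100HG-2 libraries do, and for CDKN3 the sh-MIR100HG-2 libraries lie below all others.

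Across both shRNAs, p27 transcripts were higher than in the control by 1.82-fold, and CDKN1B was the only member whose 4 knockdown libraries all lay beyond both controls. No member passed an adjusted p of 0.05 in any comparison, and neither did any other gene with edgeR's quasi-likelihood test (0 of 15372 genes), while 1180 genes (7.68%) had an unadjusted p under 0.05 in this comparison, 497 of them higher (3.23%) and 683 lower (4.44%). Other tests called more genes at an adjusted p of 0.05, 109 with edgeR's likelihood ratio test and 129 with DESeq2, and no member was among these. Of the 6 members tested, 1 had an unadjusted p under 0.05 in edgeR's quasi-likelihood test, CDKN1B. Lying beyond both controls in all 4 libraries, in either direction, was seen in 17.5% of genes, with 8.4% higher and 9.08% lower. In bulk RNA, a difference in the share of cells that express a gene and a difference in RNA per cell cannot be told apart. The median log2FC was 0.205 over the 6 members and -0.0359 over all genes tested.

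CDKN1B (ENSG00000111276, chr12:12867992-12875305, plus strand) had 61.5 and 74.0 CPM in the sh-TRC libraries, 94.8 and 139 with sh-MIR100HG-1, and 106 and 154 with sh-MIR100HG-2. The lowest knockdown library thus lay above the highest control, and the knockdown groups themselves overlapped. The group means were 67.7 ± 8.82 CPM, 117 ± 31.4 and 130.2 ± 33.6 (SD, n = 2). Against the control, the log2FC of both shRNAs together was 0.87 (SE 0.25, 95% interval of the fold 1.22 to 2.71), at an unadjusted p of 0.0080 (edgeR, quasi-likelihood; adjusted p = 0.503). The exact two-sided permutation test of 4 against 2 libraries gave p = 0.0667, the smallest that its 15 splits allow. For sh-MIR100HG-1 alone the log2FC was 0.79 (SE 0.28, unadjusted p = 0.0217), sh-MIR100HG-2 alone gave 0.94 (SE 0.28, unadjusted p = 0.0093), and the difference between the shRNAs was 0.16, with a 95% interval from -0.48 to 0.79. Without the pair of libraries that stood apart, the log2FC of both shRNAs together was 1.13, that of sh-MIR100HG-1 was 1.18 and that of sh-MIR100HG-2 was 1.08. Without sh-MIR100HG-1 replicate 2 the log2FC of that shRNA was 0.48 in place of 0.79, and without sh-TRC replicate 1 the unadjusted p of both shRNAs together was 0.0659.

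CDKN1A (ENSG00000124762, chr6:36644237-36655116, plus strand) differed between the shRNAs. It had 157 and 195 CPM in the sh-TRC libraries, 127 and 186 with sh-MIR100HG-1, and 305 and 285 with sh-MIR100HG-2. The sh-MIR100HG-2 libraries lay above all others, and the sh-MIR100HG-1 libraries spanned both sides of the lower control. With sh-MIR100HG-2 the log2FC was 0.75 (SE 0.25, 95% interval of the fold 1.13 to 2.49, unadjusted p = 0.0162, edgeR adjusted p = 0.508). With sh-MIR100HG-1 it was -0.17 (SE 0.25, 95% interval of the fold 0.601 to 1.32, unadjusted p = 0.512). The direct test between the shRNAs gave a log2FC of 0.91 (SE 0.25, unadjusted p = 0.0058, edgeR adjusted p = 0.509), the smallest unadjusted p of any member in any comparison. Without the pair of libraries that stood apart this difference was 0.66, with an unadjusted p of 0.0783, and the log2FC of sh-MIR100HG-1 turned to 0.24. For both shRNAs together the log2FC was 0.29 (unadjusted p = 0.219) and the exact permutation p was 0.667. Without the pair of libraries that log2FC was 0.58, and that of sh-MIR100HG-2 alone was 0.91. Leaving out 1 library moved the log2FC of both shRNAs together to 0.14 (without sh-TRC replicate 1), 0.13 (without sh-MIR100HG-1 replicate 2) or 0.45 (without sh-TRC replicate 2).

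CDKN1C (ENSG00000129757, chr11:2904443-2907111, minus strand) was the lowest of the tested members, with 322 to 726 raw counts. It had 5.99 and 10.1 CPM in the sh-TRC libraries, 10.5 and 9.21 with sh-MIR100HG-1, and 14.2 and 14.5 with sh-MIR100HG-2. The sh-MIR100HG-2 libraries lay above all others, whereas the sh-MIR100HG-1 libraries lay on either side of the higher control. The log2FC was 0.84 for sh-MIR100HG-2 (SE 0.32, unadjusted p = 0.0275, edgeR adjusted p = 0.532) and 0.30 for sh-MIR100HG-1 (unadjusted p = 0.371), and the difference between them was 0.54 with a 95% interval from -0.18 to 1.26. The size rested on which control was used: for sh-MIR100HG-2 the log2FC was 0.51 without sh-TRC replicate 1 and 1.26 without sh-TRC replicate 2, and for both shRNAs together it was 0.57, 0.24 and 0.99 with both controls, without replicate 1 and without replicate 2, respectively. Without the pair of libraries that stood apart it was 0.94, and that of sh-MIR100HG-1 alone was 0.62.

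The makeup of the Cip/Kip transcripts differed between the shRNAs. CDKN1A outnumbered CDKN1B per kilobase by 2.36 and 2.42 times in the sh-TRC libraries, by 1.23 and 1.24 times with sh-MIR100HG-1, and by 2.64 and 1.70 times with sh-MIR100HG-2. CDKN1B therefore made up 28.9% and 28.0% of the Cip/Kip sum per kilobase in the control, 42.5% and 43.3% with sh-MIR100HG-1, and 26.4% and 35.6% with sh-MIR100HG-2. In this share both sh-MIR100HG-1 libraries lay above both controls, while the sh-MIR100HG-2 libraries lay on either side of them, and in the sum both sh-MIR100HG-2 libraries lay above both controls, while the sh-MIR100HG-1 libraries overlapped them. That sum was 75.8 and 94.0 CPM per kb in the control, 79.3 and 114 with sh-MIR100HG-1, and 143 and 154 with sh-MIR100HG-2. The sum of the 4 INK4 genes overlapped between all groups, at 50.5 and 71.6, 58.3 and 57.6, and 52.8 and 71.4 CPM per kb. These shares and sums are given as descriptions without a test.

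**Figure D4:**
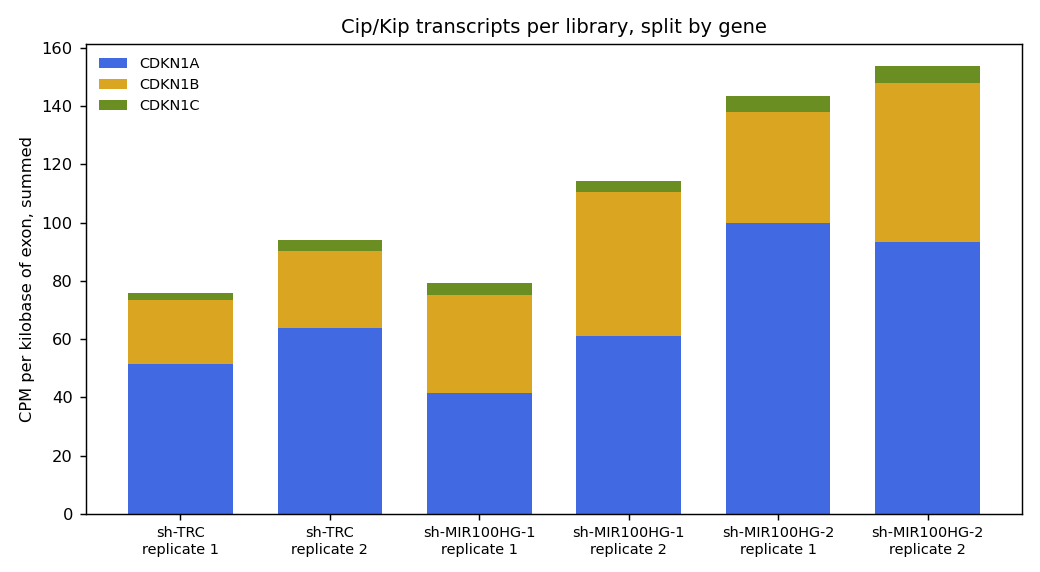
Stacked bars of CDKN1A, CDKN1B and CDKN1C in CPM per kilobase of exon for each of the 6 libraries, from 0. The sh-MIR100HG-2 bars are the tallest (143 and 154 CPM per kb). The share of CDKN1B is higher in the sh-MIR100HG-1 libraries (42.5% and 43.3%) than in the other libraries, and CDKN1A is the largest part of every bar.

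No comparison of the expressed INK4 genes had an unadjusted p under 0.05. CDKN2C (ENSG00000123080, chr1:51426417-51440305, plus strand), which encodes p18, had 59.9 and 82.8 CPM in the sh-TRC libraries, 71.2 and 45.7 with sh-MIR100HG-1, and 59.7 and 48.9 with sh-MIR100HG-2. Its log2FC was -0.34 for both shRNAs together (95% interval of the fold 0.537 to 1.16, unadjusted p = 0.198), -0.29 for sh-MIR100HG-1, and -0.39 for the other shRNA. The sh-MIR100HG-1 libraries overlapped the controls, and the higher sh-MIR100HG-2 library lay just under the lower control. CDKN2D (ENSG00000129355, chr19:10677138-10679735, minus strand), which encodes p19, had 48.8 and 69.5 CPM, 54.7 and 65.9, and 52.3 and 85.1 in the same order. All 3 groups overlapped, and the log2FC of both shRNAs together was 0.12 (95% interval of the fold 0.723 to 1.64, unadjusted p = 0.648), which leaves differences of either direction within those bounds. For CDKN2C, the log2FC of both shRNAs together was -0.09 without sh-TRC replicate 2 and -0.55 without sh-TRC replicate 1. Without the pair of libraries that stood apart, it was -0.27 for CDKN2C and 0.46 for CDKN2D. Without them, sh-MIR100HG-1 gave -0.39 for CDKN2C and 0.43 for CDKN2D (0.03 with them), and sh-MIR100HG-2 gave -0.14 and 0.49 (0.22 with them for CDKN2D). Per kilobase, CDKN2D exceeded CDKN2C in every library, by 1.70 to 1.93 times in 4 libraries and by 3.18 and 3.85 times in the second replicate of each MIR100HG shRNA.

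CDKN3 (ENSG00000100526, chr14:54863567-54886936, plus strand) was lower with sh-MIR100HG-2, at 0.492 of the control, and lay near the control with sh-MIR100HG-1, at 0.951. It had 86.4 and 67.8 CPM in the sh-TRC libraries, 53.4 and 93.4 with sh-MIR100HG-1, and 35.5 and 40.4 with sh-MIR100HG-2. The sh-MIR100HG-2 libraries lay below all others, and the sh-MIR100HG-1 libraries spread beyond the controls on both sides. The log2FC was -1.02 for sh-MIR100HG-2 (SE 0.30, 95% interval of the fold 0.307 to 0.790, unadjusted p = 0.0083, edgeR adjusted p = 0.498) and -0.07 for sh-MIR100HG-1 (unadjusted p = 0.811). Tested directly, the shRNAs differed by -0.95 (SE 0.30, unadjusted p = 0.0120, edgeR adjusted p = 0.509). That difference was -1.30 without sh-MIR100HG-1 replicate 1 and -0.48, with an unadjusted p of 0.162, without sh-MIR100HG-1 replicate 2. For both shRNAs together the log2FC was -0.55 (unadjusted p = 0.0588, exact permutation p = 0.333), and it was -0.36 without sh-TRC replicate 1. Without the pair of libraries that stood apart, sh-MIR100HG-2 gave a log2FC of -1.19 and sh-MIR100HG-1 one of 0.11.

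Counted by comparison, 4 of the 6 tested members had an unadjusted p under 0.05 with sh-MIR100HG-2, against 8.86% of all genes: CDKN1A, CDKN1B and CDKN1C were higher (3.71% of all genes) and CDKN3 was lower (5.15%). With sh-MIR100HG-1 the count was 1 of 6, CDKN1B, against 6.87% of all genes (3.1% higher and 3.77% lower). Between the shRNAs it was 2 of 6, CDKN1A, higher with sh-MIR100HG-2 (3.34% of genes), and CDKN3, lower (6.12%), against 9.45% in either direction. These counts rested on single libraries, and the count with both shRNAs together also on the test and processing. Without sh-TRC replicate 1 the count was 0 of 6 with sh-MIR100HG-2, with sh-MIR100HG-1 and with both shRNAs together. With sh-MIR100HG-2 it was 2 of 6 without either of its own replicates, CDKN1B and CDKN3 without replicate 1 and CDKN1A and CDKN3 without replicate 2. With sh-MIR100HG-1 it was 0 of 6 without its replicate 2, and between the shRNAs it was 1 of 6 without replicate 1 (CDKN3) or replicate 2 (CDKN1A) of sh-MIR100HG-1. With both shRNAs together it was 2 of 6 without sh-TRC replicate 2, where CDKN1C joined CDKN1B, and without sh-MIR100HG-1 replicate 2, where CDKN3 did. Without the pair of libraries that stood apart, the counts were 4 with sh-MIR100HG-2, 1 with sh-MIR100HG-1 and 1 between the shRNAs (CDKN3). The sh-MIR100HG-2 libraries lay wholly beyond the controls for 5 of 6 members, which was the case for 38.5% of all genes, and the sh-MIR100HG-1 libraries for 1 of 6, against 40.5%. Median log2FCs of the 6 members were 0.481 under sh-MIR100HG-2 and -0.0226 under sh-MIR100HG-1, beside -0.0441 and -0.0037 over all genes tested. These comparisons share the sh-TRC libraries, so they do not stand as separate tests of each other.

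**Figure D5:**
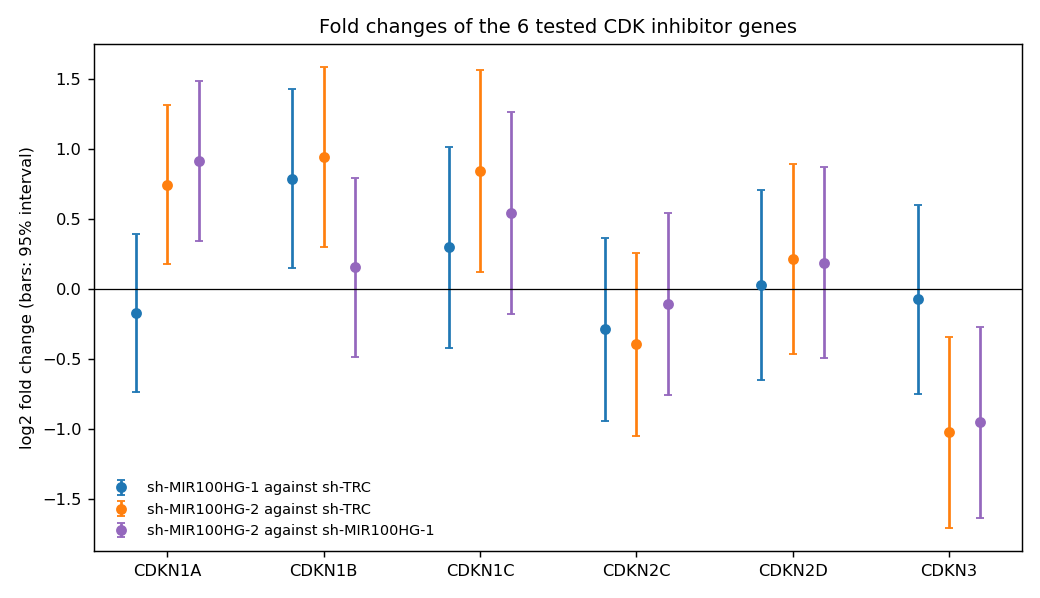
Log2FC of the 6 tested members with 95% intervals from edgeR's quasi-likelihood fit, for sh-MIR100HG-1 against sh-TRC (blue), sh-MIR100HG-2 against sh-TRC (orange) and the shRNAs against each other (purple, sh-MIR100HG-2 minus sh-MIR100HG-1). The intervals of CDKN1B lie above 0 for both shRNAs, and those of CDKN1A and CDKN3 leave 0 only for sh-MIR100HG-2 and for the difference between the shRNAs.

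Sequence features of the members differed from gene to gene. Sites for the seeds were searched in the 3′UTRs of the canonical transcript of 19053 genes, all 8 members included. A site of let-7a (CTACCTC) is held by 9.73% of these genes and by CDKN1A alone among the members, shown with the site in capitals at chr6:36654509-36654537, plus strand, GRCh37.
CDKN1A let-7a site: gcaccctagttCTACCTCaggcagctcaa
A site of miR-125b (CTCAGGG) is held by 14.7% of genes and by CDKN2A and CDKN2B, and the site of the sh-MIR100HG-2 guide seed (AGAATAA) by 18.98% of genes and by CDKN2B. No member held the site of the sh-MIR100HG-1 guide seed (ACTTAAA, 17.4% of genes) or of miR-100 (TACGGGT, 1.07%). CDKN1A, CDKN1B, CDKN1C and CDKN3 held no AGAATAA in these 3′UTRs, which says only that the letters are not there, as a match of letters is not a measured site.

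In the promoters of RefSeq (GRCh38.p14, 250 bases before to 50 after each start; 7 members had an entry, CDKN1C none), 4 motifs were searched on both strands. The cell cycle homology region TTTGAA, a motif of genes that peak in G2 and mitosis, was found among the members only in CDKN3, and in 15.2% of the 35116 promoters. It is shown in capitals, read on the plus strand at chr14:54396826-54396853, where it appears as its reverse complement.
CDKN3 promoter: cccgcgcgtctTTCAAAggtcttctagg
The GC box GGGCGG, the letters that Sp1 binds, had the most matches in a promoter of CDKN2C, with 6, and 1 in another promoter of that gene. It had 4 in CDKN1A, 3 in CDKN2D, 2 in CDKN2B, 2 in 1 promoter of CDKN2A, 1 in CDKN1B and 0 in CDKN3 (45.0% of promoters hold one). CCAAT had 3 in CDKN1B, 2 in CDKN3, 1 in CDKN2D and 1 in 1 promoter of CDKN2C (34.6%). The E2F letters TTTCGCGC or TTTGGCGC were in no member's window and in 1.15% of promoters. The CDKN1A window that holds adjacent GC boxes is shown with the first in capitals, at chr6:36678658-36678685, and that of CDKN1B with its CCAAT letters in capitals, at chr12:12717307-12717333.
CDKN1A promoter: gaggcgggcccGGGCGGggcggttgtat
CDKN1B promoter: cgccgccgcaaCCAATggatctcctcc

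Among the genes whose products degrade these proteins, SKP2 was the one with the smallest p. Of 12 ubiquitin ligase genes that act on p27, p21 or p57, 3 were higher and 0 lower at an unadjusted p under 0.05 with both shRNAs together. Over all genes, 3.23% were higher and 4.44% lower. Of the 12, 0 passed an adjusted p of 0.05, and the median log2FC was 0.0836. SKP2, the F-box protein that marks p27 for degradation, had 19.1 and 28.9 CPM in the sh-TRC libraries, 54.2 and 60.2 with sh-MIR100HG-1, and 61.0 and 56.9 with sh-MIR100HG-2. All 4 knockdown libraries exceeded both controls, with a log2FC of 1.28 (SE 0.23, unadjusted p = 0.00048, edgeR adjusted p = 0.381). SKP2 and CDKN1B transcripts were thus both higher in all 4 knockdown libraries, a pattern that 8.4% of all genes had. The others were CUL4A (log2FC 0.49, unadjusted p = 0.040) and DTL (0.42, unadjusted p = 0.042), the scaffold and the substrate receptor of the CRL4-Cdt2 ligase that degrades p21.

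The kinases and pocket proteins on which the inhibitors act were mixed. Of 18 genes, 1 was higher and 2 were lower at an unadjusted p under 0.05 with both shRNAs together (median log2FC 0.127). Over all genes, 3.23% were higher and 4.44% lower. CDK6, the kinase that INK4 proteins bind, had 91.6 and 101 CPM in the sh-TRC libraries, 153 and 268 with sh-MIR100HG-1, and 186 and 240.3 with sh-MIR100HG-2, for a log2FC of 1.13 (SE 0.27, unadjusted p = 0.0025). RBL2, the pocket protein p130 of quiescent cells, was lower (log2FC -0.79, unadjusted p = 0.014), as was CCNA1, the cyclin A of germ cells (log2FC -1.23, unadjusted p = 0.032, at most 3.02 CPM). Between the shRNAs, 4 of the 18 were lower with sh-MIR100HG-2 and 1 was higher at an unadjusted p under 0.05. Over all genes, 6.12% were lower and 3.34% higher in that comparison. CDK1 was lower (log2FC -1.12, unadjusted p = 0.0036), as were RBL1 (-0.80, p107), CCNH (-0.89, a subunit of the CDK-activating kinase) and RB1 (-0.63). CCND3, a D-type cyclin, was higher (0.82). For these 8 genes edgeR gave adjusted p values between 0.446 and 0.626.

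Some genes that mark dividing cells had, like CDKN3, lower values with sh-MIR100HG-2 than with sh-MIR100HG-1. Of 12 mitotic genes, 0 were higher and 4 were lower in this comparison at an unadjusted p under 0.05 (6.12% of all genes were lower), 0 passed an adjusted p of 0.05 with edgeR, and 2 had a positive estimate, with a median log2FC of -0.241 beside -0.0116 over all genes. They were CDK1, TOP2A (log2FC -0.75), CENPF (-1.22) and MKI67 (-0.54). The summed level of the list was 2831 and 2502 CPM in the sh-TRC libraries, 2780.4 and 3002 with sh-MIR100HG-1, and 2072 and 2097 with sh-MIR100HG-2, so that the sh-MIR100HG-2 libraries had the lowest sums, as they had for CDKN3. The part of the share of cycling cells in the CDKN3 values was not tested.

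The regulators and the other p53 targets were counted at an unadjusted p under 0.05 in edgeR's quasi-likelihood test. Of 24 tested p53 response genes, 2 were higher and 0 lower with both shRNAs together (median log2FC 0.123), beside 3.23% and 4.44% of all genes. The 2 were BBC3 (PUMA), with a log2FC of 0.75 (unadjusted p = 0.0059), and ZMAT3 (0.66, unadjusted p = 0.045). With sh-MIR100HG-2 alone, where CDKN1A was highest, 1 of the 24 was higher and 0 were lower (median 0.0727), beside 3.71% and 5.15% of all genes. BBC3 had 23.3 and 18.4 CPM in the sh-TRC libraries, 25.0 and 27.8 with sh-MIR100HG-1, and 47.1 and 46.1 with sh-MIR100HG-2. This was the same order of groups as for CDKN1C. RRM2B was lower with sh-MIR100HG-2 than with sh-MIR100HG-1 (log2FC -0.92). In that comparison 1 of the 24 was higher and 1 lower, beside 3.34% and 6.12% of all genes. Of 19 transcriptional regulators of CDKN1A or CDKN1B, 0 were higher and 1 was lower with both shRNAs together, beside 3.23% and 4.44% of all genes. The lower gene was EGR1, an immediate early factor. EGR1 had 451 and 39.3 CPM in the sh-TRC libraries, 281 and 174 with sh-MIR100HG-1, and 22.0 and 25.0 with sh-MIR100HG-2, so the controls lay far apart, with both sh-MIR100HG-1 libraries between them and both sh-MIR100HG-2 libraries below them. FOXO4 was higher with sh-MIR100HG-2 than with sh-MIR100HG-1 (log2FC 0.74). In that comparison 1 of the 19 was higher and 1 lower, beside 3.34% and 6.12% of all genes. None of the genes named here passed an adjusted p of 0.05 in edgeR's quasi-likelihood test.

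Of 15 Polycomb genes, which repress the INK4 locus in many cells, 0 were higher and 0 lower with both shRNAs together. Over all genes, 3.23% were higher and 4.44% lower at an unadjusted p under 0.05. SUZ12 (log2FC -0.97) and EZH2 (-0.50) were lower with sh-MIR100HG-2 than with sh-MIR100HG-1 at an unadjusted p under 0.05, as were 6.12% of all genes. Of the 6 tested neighbours of CDKN1C in its imprinted region, 1 was lower with both shRNAs together, beside 4.44% of all genes. It was SLC22A18, with a log2FC of -1.32 (unadjusted p = 0.0084), while CDKN1C itself had a positive estimate. H19 and KCNQ1OT1 were not analysed here. Of 6 other genes named for CDK inhibition or for binding the products of CDKN2A, such as CDKN2AIP and CDK2AP1, 0 were higher and 0 lower (3.23% and 4.44% of all genes).

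No tested member had another member among the 3 genes nearest to it in pattern. Likeness was measured as the root-mean-square (RMS) difference of log2 CPM, centred on each gene's mean, over the 6 libraries, among 12557 genes. The genes nearest to CDKN1A were FAM222A (0.0638), RNF19B (0.0793) and NFKB2 (0.113), a subunit of NF-κB. CDKN1B was most like FAM234B (0.0568), STAT3 (0.101) and SCHIP1 (0.105), of which FAM234B lies 322 kb from it on chromosome 12. CDKN1C was most like ATXN7L3B (0.0663), KCTD21 (0.0772) and FJX1 (0.0816), and CDKN2C most like FBXW4 (0.0433), PACSIN3 (0.0489) and LRRC51 (0.0598). CDKN2D was most like UBAC1 (0.0518), SLC44A2 (0.0538) and ITPK1 (0.0599). UBAC1 is among the 12 ubiquitin ligase genes counted above, and SLC44A2 lies 33.4 kb from CDKN2D on chromosome 19. For CDKN3 the differences were larger, with NBN (0.121), LINC02454 (0.142) and TBC1D3 (0.161), a gene with near-identical copies, as the nearest. CDKN3 itself also varied the most. Its RMS about its own mean was 0.521, beside 0.275 (CDKN2D) to 0.467 (CDKN1B) for the other members. With 6 libraries, such likeness is a description and names no relation.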

How the data were processed

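RNA-seq libraries of 6 samples were analysed. The authors mapped reads to GRCh37 with STAR (2.5.2a in the submitters' processing notes) and the GENCODE annotation, counted them per gene with FeatureCounts, and deposited raw counts; strand setting and treatment of multiply mapped reads are not given in the sources used here. Genes with at least 5 counts in at least 4 of 6 libraries (15372 of 27745) were tested with edgeR 4.0.16 in R 4.3.3 (TMM, glmQLFit, glmQLFTest) in a single model of 3 groups, with 3 residual degrees of freedom, a common biological coefficient of variation of 27.8%, and Benjamini-Hochberg adjustment over all genes tested. CPM were TMM-normalised, with 0.125 CPM added on the log2 scale. Library totals were 43804736 to 64588388. With 2 replicates a group, the spread between replicates and not depth set the precision of most members. The members and gene lists were chosen with earlier results of these data known. The text names all members, up to 6 genes a list at an unadjusted p under 0.05, and the 3 genes of most similar pattern. The same-numbered replicates were checked for pairing, and the test was tried on simulated counts. Alternatives were DESeq2 1.42.0, other normalisations and filters, a replicate block, and leaving out libraries.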

Additional observations from a re-analysis of the deposited data

How the results depend on the processing

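Each of the 24 comparisons of a tested member was repeated under 16 alternatives, 2 of them (leaving out sh-TRC 2 and sh-MIR100HG-1 1 together, and crossing the control numbers in the block) chosen after seeing the data. Of these 384 values, 359 kept their direction and their side of the threshold, 5 newly passed it and 20 reversed. All 24 comparisons lay above the threshold before, and some alternatives left out a library that the comparison did not use. The count of 359 is therefore no measure of stability. The 5 arose with no filter on low counts, which called 1 member with both shRNAs together, 2 with sh-MIR100HG-2 and 2 between the shRNAs: CDKN1B (adjusted p = 0.0323 and, with sh-MIR100HG-2, 0.0312), CDKN3 (0.0209 with sh-MIR100HG-2 and 0.0367 between the shRNAs) and CDKN1A (0.0210 between the shRNAs), all from edgeR's quasi-likelihood test; it also called 392, 227, 517 and 679 genes in place of 0, and the cause was not tested. MIR100HG passed the threshold with no filter (log2FC -1.86), with the likelihood ratio test (-1.86) and with DESeq2 (-1.84). The estimates that changed sign lay between -0.17 (CDKN1A with sh-MIR100HG-1) and 0.30 (CDKN1C with sh-MIR100HG-1) in the main fit. CDKN2D with sh-MIR100HG-1 was -0.026 with library totals alone. That setting shifted the median of all genes by -0.058 with sh-MIR100HG-1 and by -0.103 with sh-MIR100HG-2. Without sh-TRC 2 and sh-MIR100HG-1 1 together, sh-MIR100HG-1 gave 0.24 for CDKN1A and 0.11 for CDKN3, and the difference between the shRNAs was -0.10 for CDKN1B and 0.25 for CDKN2C. Leaving out 1 library at a time moved CDKN2D between -0.11 and 0.40 with both shRNAs together, between -0.21 and 0.31 with sh-MIR100HG-1, between -0.19 and 0.53 with sh-MIR100HG-2, and between -0.20 and 0.50 for the difference between the shRNAs. With sh-MIR100HG-1 it moved CDKN1A between -0.485 and 0.083, CDKN1C between -0.028 and 0.72, and CDKN3 between -0.54 and 0.28, and for the difference between the shRNAs CDKN1B between -0.14 and 0.48 and CDKN2C between -0.38 and 0.25. A group left with 1 library is assumed to vary like the others. With all 6 libraries kept, the count of members at an unadjusted p under 0.05 changed only for both shRNAs together. It was 2 with DESeq2 (CDKN1B, CDKN1C) and with library totals alone, no filter or the replicate block (CDKN1B, CDKN3). With the control numbers crossed it was 3 (CDKN1B, CDKN1C, CDKN3). Under the other settings it stayed at 1.

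Same-numbered libraries deviated from their group means together between the shRNAs (r = 0.497 over 15372 genes) but not between the control and sh-MIR100HG-1 (-0.213) or sh-MIR100HG-2 (0.0219), and nothing in the labels ties the numbers to a batch. With the replicate block, 0 members and 0 genes were called in all 4 comparisons; the log2FC of CDKN1B with both shRNAs together was 0.84, and the differences between the shRNAs were 0.94 for CDKN1A and -0.93 for CDKN3; with the control numbers crossed, the CDKN1B value was 0.83 and again 0 were called.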

Other observations

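The surroundings of CDKN1B were examined after the likeness of FAM234B had been seen. Of the 15 other tested genes within 500 kb of CDKN1B, 2 were higher and 1 was lower at an unadjusted p under 0.05 with both shRNAs together. Over all genes, 3.23% were higher and 4.44% lower. The median log2FC of the 15 was -0.0359. The higher ones were FAM234B (log2FC 0.91, SE 0.24, edgeR adjusted p = 0.476) and DUSP16 (0.74, SE 0.20, edgeR adjusted p = 0.476), a phosphatase of MAP kinases, at 322 kb and 153 kb from CDKN1B. APOLD1, 3.55 kb from CDKN1B, had a log2FC of -0.79 (SE 0.30). CREBL2 and GPR19, on the other side of CDKN1B at 70.0 kb and 18.9 kb, had log2FCs of 0.005 and 0.29. Around the other tested members, between 5 (CDKN2C) and 32 (CDKN2D) genes were tested within 500 kb. Between 0 and 3 of these were higher and between 0 and 2 lower, with 3 higher and 2 lower around CDKN2D.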
